A study of Mus musculus with 4 samples.

Results

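The genes described here are 36 redox genes of mouse macrophages: the transcription factor NRF2 (gene Nfe2l2), its inhibitor KEAP1, and the enzymes, transporters and binding proteins that make and use glutathione, thioredoxin and NADPH or that handle peroxide, haem, iron and zinc. They were chosen by name, with earlier results of these data known, from a table of 54532 genes, and all 36 were found in it. RNA was sequenced from macrophages grown out of the marrow of C57BL/6 mice aged 6 to 8 weeks, which were cultured for 6 days with medium conditioned by L929 cells. The 4 libraries carry 2 titles, WT and KO, each untreated and after 3 h of lipopolysaccharide (LPS, a bacterial cell wall component), with 1 library per group. By the series' design text WT stands for mice with floxed Fbxw7 alleles and KO for mice that also carry LysM-cre, so that both titles share the floxed alleles and differ in a Cre recombinase expressed in myeloid cells. The sample labels disagree with these titles: both untreated libraries have a genotype tag of the floxed allele alone, and both LPS libraries have a tag that includes LysM-cre. Groups follow the titles here, and "KO" and "WT" always mean the library so titled. The sources used here give neither the number of mice behind a library nor the LPS dose. Values of a gene over the 4 libraries always follow 1 order: untreated WT, untreated KO, WT after LPS, KO after LPS.

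NRF2 is a transcription factor that is held in the cytoplasm and marked for destruction by KEAP1, the substrate adaptor of a CUL3 ubiquitin ligase. Electrophiles and oxidants modify cysteines of KEAP1, NRF2 then accumulates, pairs with a small MAF protein and binds antioxidant response elements near genes such as Nqo1, Gclm, Txnrd1, Hmox1 and Slc7a11. In macrophages the same genes buffer the peroxide, superoxide and nitric oxide that the cell makes after it senses bacteria, and the itaconate made by ACOD1 is a known activator of NRF2.

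The libraries held 17610372, 23835940, 20947275 and 19464937 counts, and the 36 genes took 3.02, 3.01, 2.54 and 2.53% of them. Levels are given as CPM, the usual read count relative to library size, after TMM scaling, and a level of 3 counts corresponded to between 0.108 and 0.184 CPM. A gene was taken as measured where its mean level over the libraries was 1 CPM or more, which 12326 genes of the table and 35 of the 36 redox genes reached. The exception was Sod3, the extracellular superoxide dismutase, with 4, 7, 2 and 8 counts. The gene-level counts of Fbxw7 were 395, 477, 170 and 191, and the KO level was 0.963 times the WT level untreated and 1.18 times it after LPS, so that no loss was visible at the level of the whole gene. Lyz1, a lysozyme gene, had 63, 910, 569 and 43 counts, high in KO untreated and in WT with LPS, whereas its neighbour Lyz2, the gene into which LysM-cre is inserted, was 0.571 times as high in KO as in WT untreated and 1.84 times as high after LPS. All 10 macrophage markers were measured, with summed levels of 21689, 15735, 21031 and 27368 CPM; most of this was Lyz2, and the 9 others summed to 6436, 7024, 11114 and 9131 CPM. None of 10 erythroid markers was measured, and Hba-a2, Hbb-bs, Hbb-bt and Slc4a1 were at 0 in every library. Neutrophil markers were measured for 2 of 10 genes, with summed levels of 10.3, 33.5, 29.8 and 7.10 CPM; most of this was Mmp8, with 145, 812, 326 and 64 counts, while Retnlg was at 0 in every library.

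Stretches of the promoters of 4 of the genes are shown because the antioxidant response element is the sequence through which NRF2 is known to act, and because these genes carry the patterns described after them: Gclm, Gsta3 and Prdx1 were lower in KO than in WT untreated and higher after LPS, and Txnrd1 was higher in both LPS libraries. The sequences are from RefSeq (assembly GRCm38.p6, which mm10 also denotes), read in the direction of the gene, with up to 25 bases on either side of a match to TGACNNNGC, the core of the element, or to its reverse complement. Capitals mark the match.
Gclm, chr3:122245398-122245456, plus strand: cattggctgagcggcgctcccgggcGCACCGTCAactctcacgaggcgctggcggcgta
Gsta3, chr1:21240439-21240497, plus strand: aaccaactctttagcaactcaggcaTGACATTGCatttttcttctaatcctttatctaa
Prdx1, chr4:116685441-116685499, plus strand: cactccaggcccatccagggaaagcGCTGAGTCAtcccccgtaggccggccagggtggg
Txnrd1, chr10:82859089-82859147, plus strand: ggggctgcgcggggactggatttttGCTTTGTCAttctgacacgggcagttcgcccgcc

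The first base of the match lay 134 bases before the RefSeq transcription start in Gclm, 121 in Gsta3, 133 in Prdx1 and 92 in Txnrd1. RefSeq windows were at hand for 3 starts of Txnrd1, and the match belongs to one that lies 25255 bases inside the gene as GENCODE vM21 gives it, in no annotated exon; the 3 other stretches lie before the GENCODE gene. The match of Prdx1 also contains TGACTCA, the AP-1 site, on the opposite strand. Windows from 250 bases before to 50 bases after the start were at hand for 30 of the 36 genes, and 11 of these (Nfe2l2, Gclm, G6pdx, Pgd, Me1, Txnrd1, Srxn1, Prdx1, Sod1, Gsta3 and Mt2) held TGACNNNGC on either strand. Some of these matches, among them those of Me1 and G6pdx, lie after the start of the gene in GENCODE. The 4 genes shown were picked by their values. Srxn1 and Mt2 also held the motif, and their highest library stood only 1.23-fold and 1.69-fold above their lowest. The window of Cat, which crossed the titles like Gsta3, held no match. Of all 27025 genes with a window 14.0% held it, as did 12.4% of the 32851 windows, and 5.95% of genes held TGACTCA, with which TGACNNNGC overlaps in letters. A match describes the letters in a window and not a bound site, and elements outside the window were not searched.

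**Figure D1:**
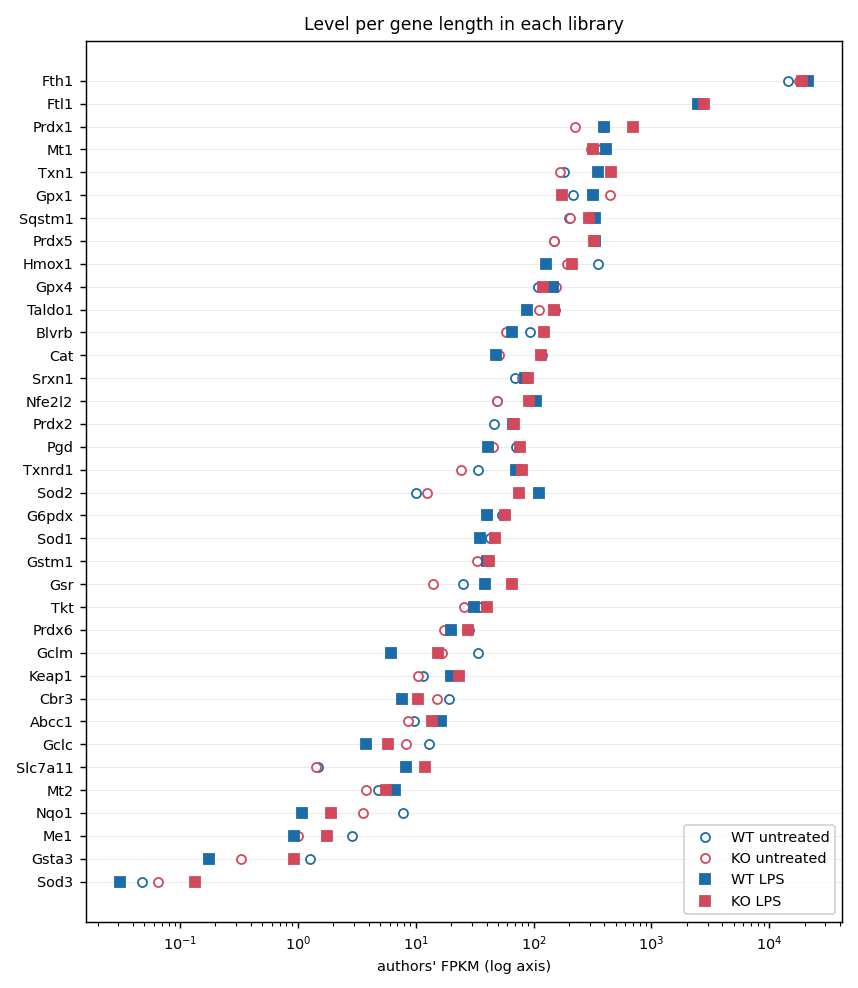
The authors' FPKM (read abundance scaled by gene length and library size, log axis) of each redox gene in the 4 libraries, 1 point per library. Fth1 stands highest, between 14438 and 21348 FPKM, and Sod3 lowest, between 0.0313 and 0.134.

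Per length, the ferritins led the group. Fth1, the ferritin heavy chain that oxidises iron for storage, had 14438, 17769, 21348 and 18864 FPKM, the deposited length-scaled unit, and Ftl1, the light chain, had 2680.4, 2539, 2467 and 2810.1. Fth1 alone took 1.60, 1.85, 1.51 and 1.34% of all counts. Next came Prdx1, the main cytosolic 2-cysteine peroxiredoxin, at 224 to 697 FPKM, the zinc-binding metallothionein Mt1 at 310.5 to 412 and thioredoxin (Txn1) at 168 to 454. At the other end Nqo1, Me1 and Gsta3 stood between 0.175 and 7.84 FPKM in every library. The plot of FPKM by gene shows that the range between genes, over more than 5 powers of 10, was far wider than any difference between libraries.

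**Figure D2:**
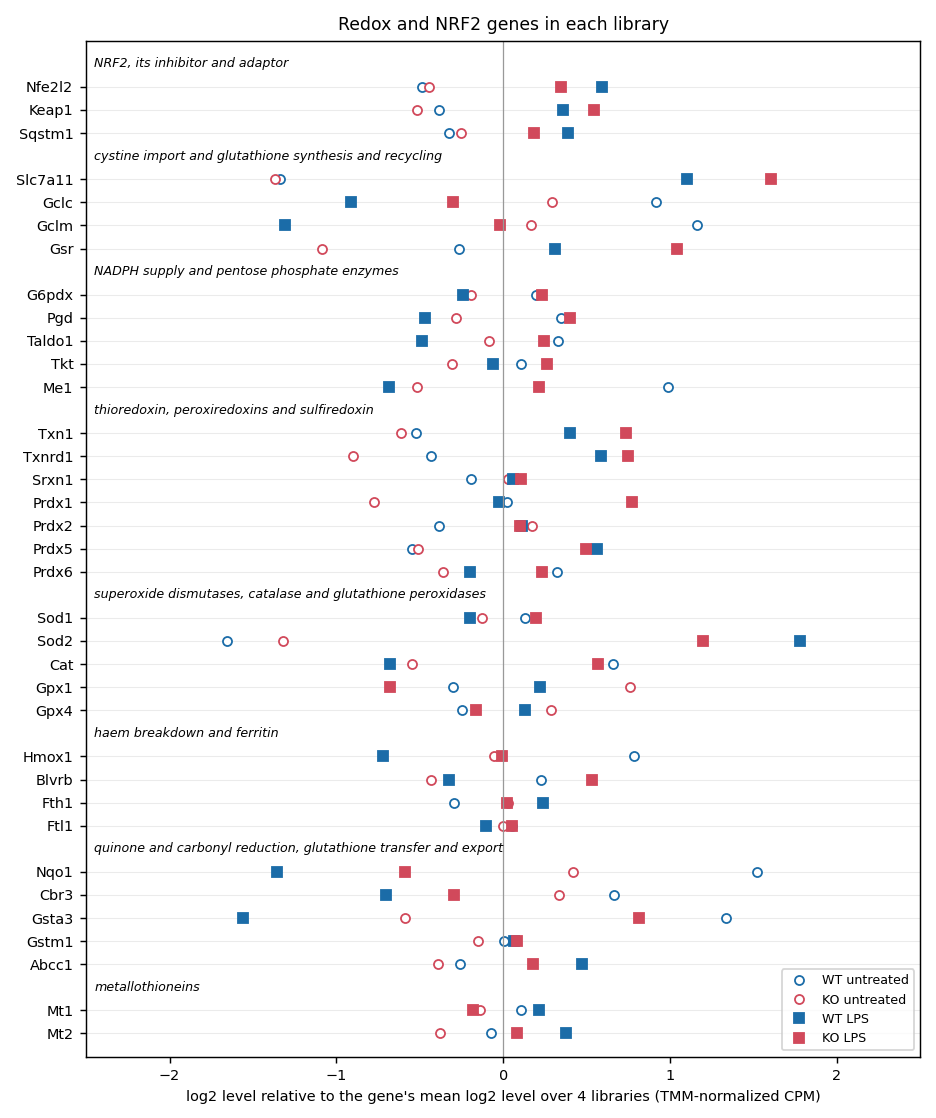
Level of each measured redox gene in each library, as the log2 of its TMM-normalized CPM minus the gene's mean over the 4 libraries; circles are untreated and squares LPS libraries, blue WT and red KO. Slc7a11, Sod2, Txn1 and Txnrd1 separate circles from squares, while Cat, Gsta3 and the pentose phosphate enzymes place WT untreated and KO with LPS together on the high side.

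Because each group had 1 library, a difference between 2 libraries has no replicate test. A gene was counted as higher or lower by a size rule: at least 2-fold on log2 CPM with a prior count of 2, with an exact 95% binomial interval of the counts that excluded no difference. Such intervals cover counting error only, and folds are ratios of scaled counts with this interval after them. The words rose and fell are kept for the one test the design allows, an edgeR quasi-likelihood model with treatment and title as terms over all 4 libraries (1 residual degree of freedom, 13989 genes, Benjamini-Hochberg adjusted p under 0.05). Its p-values rest on these 4 libraries and measure no spread between replicates. The residual degree of freedom holds the difference of the LPS responses between titles. A gene with unlike LPS responses in WT and KO thus gets a larger error and passes less easily, as with Gsta3 (SE 1.22) and Cat (SE 0.65). RNA of a whole culture was measured, so fewer cells with a transcript and less of it per cell cannot be told apart.

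In the WT libraries, 5 of 35 genes were higher after LPS (Nfe2l2, Slc7a11, Txnrd1, Prdx5 and Sod2), where 15.4% of all genes were, and 8 were lower (Gclc, Gclm, Me1, Cat, Hmox1, Nqo1, Cbr3 and Gsta3), where 15.0% of all genes were. In the KO libraries, 10 of 35 were higher (Keap1, Slc7a11, Gsr, Txn1, Txnrd1, Prdx1, Prdx5, Sod2, Cat and Gsta3) against 14.6% of all genes, and only Gpx1 was lower, against 17.8%. The median log2 LPS ratio of the 35 genes was 0.05 in WT and 0.44 in KO, beside -0.01 and -0.07 over all measured genes. These directions depend on the scaling. Library totals in place of TMM factors move the median gene by -0.60 in WT and -0.46 in KO. The counts were then 2 higher and 13 lower in WT, beside 9.47% and 33.2% of all genes. In KO they were 5 higher and 4 lower, beside 9.26% and 31.8% of all genes. Both LPS libraries stood above both untreated ones for 13 of the 35 genes and below them for 4, beside 34.6% and 38.1% of all genes. With a gap of at least 2-fold the counts were 4 (Slc7a11, Txnrd1, Prdx5 and Sod2) and 1 (Nqo1), beside 10.2% and 8.61% of all genes.

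In the additive model 4 of the 35 genes rose with LPS, where 9.35% of all genes tested rose. These were Slc7a11 by 2.74 ± 0.25 (log2, SE; adjusted p = 0.00703), Sod2 by 3.01 ± 0.36 (adjusted p = 0.0112), Txnrd1 by 1.37 ± 0.29 (adjusted p = 0.0438) and Txn1 by 1.17 ± 0.26 (adjusted p = 0.0484). With library totals the effects on Txnrd1 and Txn1 were 0.79 and 0.59 and no longer passed, while Slc7a11 and Sod2 did. None fell by edgeR's adjusted p, where 5.14% of all genes tested fell. At an unadjusted edgeR p under 0.05, 9 redox genes were higher and 3 lower, beside 4621 of all 13989 genes in either direction. DESeq2 also called Nfe2l2, Keap1, Gsr and Prdx5 higher and 1 gene lower, beside 11.2% and 6.05% of all genes. To the 4 genes limma-voom added Nfe2l2, Keap1 and Prdx5 and called 0 lower, beside 10.8% and 6.33% of all genes. Several genes lay just outside the threshold, among them Keap1 at 0.94 (adjusted p = 0.0525), Prdx5 at 1.09 (adjusted p = 0.0568) and Nfe2l2 at 0.97 (adjusted p = 0.0618). On the lower side Gclc at -1.17 (adjusted p = 0.0972) and Nqo1 at -1.89 (adjusted p = 0.0985) came nearest.

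By the size rule Nfe2l2 was higher with LPS in WT, Keap1 in KO and Sqstm1 in neither. None of these regulators passed the additive model in the main edgeR fit. Nfe2l2 and Keap1 did pass, as higher with LPS, by DESeq2, by limma-voom and without a filter, but not with library totals. Nfe2l2, which encodes NRF2 (chr2:75675513-75704641, mm10), had 188, 194, 398 and 336 CPM, an LPS ratio of 2.11-fold in WT (2.03 to 2.20) and of 1.73-fold in KO (1.67 to 1.80). Keap1 (chr9:21229730-21239361) had 55.7, 50.9, 93.0 and 106 CPM, with LPS ratios of 1.67-fold in WT and 2.08-fold in KO. Sqstm1 (chr11:50199366-50210827), the autophagy adaptor p62 that binds KEAP1, had 679.6, 713, 1113 and 967 CPM. For all 3 genes both LPS libraries lay above both untreated ones, and WT and KO differed by at most 1.19-fold. With library totals the LPS ratio of Sqstm1 in KO changed sign, to -0.03 on the log2 scale, and both 2-fold calls were lost, with Nfe2l2 at 0.47 in WT and 0.32 in KO and Keap1 at 0.13 and 0.59.

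Of the glutathione genes, the cystine importer was the one that rose in the main edgeR fit. Slc7a11 (chr3:49892526-50443614), the light chain of the xc- exchanger that brings in cystine for glutathione synthesis, had 21.2, 20.8, 115 and 163 CPM. It was 5.42-fold higher with LPS in WT (4.90 to 6.01) and 7.84-fold higher in KO, with untreated libraries that differed by no more than counting error. The enzyme that uses the cysteine was lower in both LPS libraries than in both untreated ones. Gclm (chr3:122245557-122270732), the modifier subunit of glutamate-cysteine ligase, had 216, 108, 39.0 and 95.5 CPM, highest in WT untreated and lowest in WT with LPS. Its level was 5.54-fold lower with LPS in WT (5.10 to 6.01) and 1.14-fold lower in KO. Gclc (chr9:77754535-77794485), the catalytic subunit, had 49.9, 32.5, 14.1 and 21.5 CPM in the same order of libraries, 3.54-fold lower with LPS in WT and 1.51-fold lower in KO. Gsr (chr8:33652523-33698163), the reductase that regenerates glutathione, had 71.4, 40.5, 107 and 177 CPM, lowest in KO untreated and highest in KO with LPS. Its LPS ratio was 1.49-fold in WT and 4.37-fold in KO (4.07 to 4.68), and the additive effect of 1.39 did not pass (adjusted p = 0.0972, edgeR). Gsr did pass by DESeq2, without a filter and without the title term, but not by limma-voom or with library totals. With library totals the WT ratio of Gsr changed sign to -0.03 (log2).

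The NADPH-supplying enzymes shared 1 pattern: each of the 5 was lower in KO than in WT untreated and higher in KO than in WT after LPS. Pgd (chr4:149149991-149166771), the 6-phosphogluconate dehydrogenase, had 468, 303, 266 and 486 CPM, 1.54-fold lower in KO untreated and 1.83-fold higher in KO after LPS (1.76 to 1.90). Taldo1, the transaldolase of the pentose phosphate pathway, had 335, 251, 190.4 and 316 CPM, and transketolase (Tkt) had 260.1, 196, 231 and 291. In these genes WT untreated and KO with LPS were the high pair, and the LPS response was negative in WT and positive in KO. G6pdx (chrX:74409483-74429194), the entry enzyme of the pathway, had 169, 129, 125 and 173 CPM; the gene overlaps Ikbkg on the other strand, and reads in the overlap cannot be told apart when the strand setting is not known. Me1 (chr9:86581371-86695953), the cytosolic malic enzyme, had 249, 110, 61 and 108 counts, or 11.3, 3.98, 3.55 and 6.61 CPM. It was 2.84-fold lower in KO untreated (2.26 to 3.59) and 1.86-fold higher in KO after LPS (1.35 to 2.59). With library totals the LPS ratios of G6pdx and Taldo1 in KO turned to -0.04 and -0.13 (log2), while those of Pgd, Tkt and Me1 in KO stayed positive.

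In the thioredoxin system the 2 core genes rose and the peroxiredoxins differed among themselves. Txn1 (chr4:57943373-57956411), thioredoxin itself, had 194, 183, 368 and 464 CPM, 1.90-fold higher with LPS in WT and 2.54-fold higher in KO (2.45 to 2.63). Txnrd1 (chr10:82833951-82897712), the selenoprotein that reduces it, had 246, 178, 498 and 556 CPM, 2.03-fold higher in WT (1.96 to 2.10) and 3.12-fold higher in KO (3.02 to 3.24). Both LPS libraries were above both untreated ones for both genes. Srxn1, the sulfiredoxin that repairs overoxidised peroxiredoxins and a known NRF2 target, had 201, 233, 238 and 247 CPM and met the 2-fold rule in no comparison.

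Prdx1 (chr4:116685544-116700822) had 1230.2, 707, 1190.2 and 2066 CPM. It was 1.74-fold lower in KO untreated (1.71 to 1.77) and 1.74-fold higher in KO after LPS (1.71 to 1.77), so that LPS left it within 1.03-fold in WT and 2.92-fold higher in KO. Prdx6, a 1-cysteine peroxiredoxin, had 138, 86.1, 96.3 and 129.8 CPM, in which WT untreated and KO with LPS were again the high pair. Prdx5 (chr19:6906697-6910106), found in mitochondria, peroxisomes and cytosol, had 326, 334, 702 and 673 CPM, with LPS ratios of 2.15-fold in WT and 2.02-fold in KO and a ratio between titles of at most 1.04-fold. Prdx2, abundant in red cells, had 144, 212, 203 and 201 CPM and was low in WT untreated alone. Prdx2 overlaps Junb on the other strand, which had 2636, 5866, 13038 and 12837 counts, so the Prdx2 values are uncertain where strand was not used in counting; Prdx5 overlaps Trmt112 in the same way, at 463 to 740 counts. Under library totals the LPS ratios of Srxn1 in both titles and of Prdx2 in WT changed sign, those of Prdx5 fell short of 2-fold at 0.49 in WT and 0.55 in KO (log2), and Prdx1 in WT stood at -0.66.

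Of the superoxide and peroxide enzymes, the mitochondrial superoxide dismutase had the largest LPS ratio of all 35 genes in WT. Sod2 (chr17:13006846-13040063) had 102, 129, 1103 and 737 CPM, 10.8-fold higher with LPS in WT (10.3 to 11.3) and 5.71-fold higher in KO (5.50 to 5.92). The LPS libraries were at least 5 times above the untreated ones, and KO was lower than WT after LPS by a fold of 1.46 to 1.53 (95% interval). Sod1, the cytosolic enzyme, had 174, 145, 138 and 182 CPM; it overlaps Scaf4 on the other strand, which had 256 to 818 counts. Catalase (Cat, chr2:103453849-103485160), which breaks down hydrogen peroxide in peroxisomes, had 6969, 3789, 2145 and 4837 counts, or 316, 137, 125 and 296 CPM. WT untreated and KO with LPS were each more than 2-fold above both other libraries. Cat was 2.31-fold lower in KO untreated (2.22 to 2.40) and 2.37-fold higher in KO after LPS (2.25 to 2.49). With library totals its LPS ratio in KO was 0.64 (log2) and not called, while both ratios between titles stayed past 2-fold. Gpx1 (chr9:108338903-108340343), the cytosolic glutathione peroxidase, went the opposite way, with 316, 661, 455 and 244 CPM. It was 2.09-fold higher in KO untreated (2.03 to 2.15), 1.87-fold lower in KO after LPS (1.80 to 1.94), and 2.71-fold lower with LPS in KO. Gpx4, which reduces lipid peroxides, had 192, 277, 249 and 203 CPM and was likewise highest in KO untreated; its pseudogene Gpx4-ps2 was listed with 631 to 1315 counts, and the sources used here do not say how reads were split between them. With library totals Gpx1 was no longer 2-fold higher in KO untreated, and the LPS ratios of Gpx1 and Gpx4 in WT changed sign.

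Of the haem and ferritin genes, Hmox1 alone met the size rule between 2 libraries, with LPS in WT. Hmox1 (chr8:75093621-75100589), haem oxygenase 1, which opens the haem ring, had 625, 351, 221 and 362 CPM, 2.83-fold lower with LPS in WT (2.73 to 2.94) and 1.03-fold higher in KO. KO was 1.78-fold lower than WT untreated and 1.64-fold higher after LPS. Blvrb, a biliverdin reductase and flavin reductase, had 267, 169.7, 182 and 331 CPM, with the same high pair. The ferritins met the rule in no comparison. Fth1 had 12765, 15965, 18412 and 15908 CPM, lowest in WT untreated, and Ftl1 had 3667, 3531, 3292 and 3667 CPM, within 1.11-fold in every comparison under TMM, though with library totals its LPS ratio in WT was -0.77 (log2). At this depth their intervals are narrow, and the 1.25-fold higher Fth1 of KO untreated (1.25 to 1.26) has no replicate against which to set it. The Ftl1 pseudogene Ftl1-ps1 was listed with 1923 to 3384 counts beside 56542 to 97644 for Ftl1. With library totals the LPS ratios of Fth1 in WT, and of Hmox1 and Ftl1 in KO, were negative.

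Nqo1 and Cbr3, a quinone and a carbonyl reductase, were lower with LPS in WT by the size rule, which they met in KO with library totals but not with TMM. Nqo1 (chr8:107388225-107403206), the NRF2 target NAD(P)H quinone reductase, had 274, 160, 29 and 47 counts, or 12.4, 5.79, 1.69 and 2.88 CPM. It was 7.36-fold lower with LPS in WT (5.01 to 11.2) and 2.01-fold lower in KO (1.45 to 2.85), and KO was 2.15-fold lower than WT untreated (1.76 to 2.63). The additive effect of LPS on Nqo1 did not pass (-1.89, adjusted p = 0.0985, edgeR), but it did with library totals, without a filter, without the title term and by DESeq2; Cbr3 passed in the first 3 of these. Cbr3, a carbonyl reductase, had 24.8, 19.7, 9.61 and 12.7 CPM, 2.58-fold lower in WT (2.16 to 3.09) and 1.55-fold lower in KO. Gsta3 (chr1:21240589-21265661), an alpha-class glutathione S-transferase, had 124, 41, 13 and 64 counts, or 5.62, 1.48, 0.757 and 3.92 CPM. It was 3.79-fold lower in KO untreated (2.65 to 5.54) and 5.17-fold higher in KO after LPS (2.82 to 10.2), the widest swing of the 35 genes. With library totals its LPS ratio in KO was 0.90 (log2) and not called. The low counts of Gsta3 gave wide intervals, as did those of Nqo1 and Mt2. Gstm1, a mu-class transferase, had 57.0, 51.1, 59.2 and 59.9 CPM, with no ratio past 1.17-fold. Abcc1, the exporter of glutathione conjugates, had 148, 135, 246 and 201 CPM, higher in both LPS libraries, at an additive effect of 0.69 that did not pass (adjusted p = 0.105, edgeR). With library totals the LPS ratios of Gstm1 were negative in both titles.

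The metallothioneins, small zinc- and copper-binding proteins, met the 2-fold rule in no comparison. Mt1 had 476, 401, 512 and 390.1 CPM, 1.07-fold higher with LPS in WT and 1.03-fold lower in KO. Mt2 had 63, 64, 67 and 52 counts, and each of its ratios had an interval that included no difference. Per length Mt1 had 374, 310.5, 412 and 322 FPKM, and Mt2 had 4.76, 3.79, 6.66 and 5.56.

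**Figure D3:**
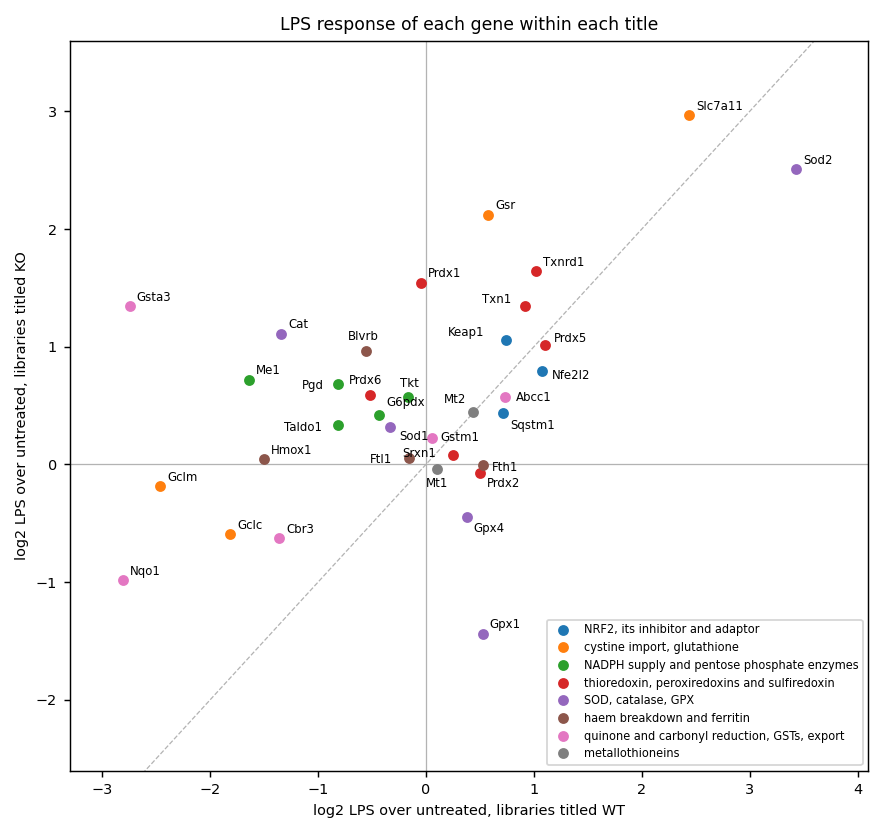
The log2 LPS ratio of each gene in the KO libraries against that in the WT libraries, coloured by role; the dashed line marks equal responses. Genes above the line responded more positively in KO: Gsta3 stands at -2.75 in WT and 1.35 in KO, Cat at -1.34 and 1.11, and Gpx1 lies below the line at 0.52 and -1.44.

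The LPS responses differed between titles. The difference of log2 LPS ratios, KO minus WT, was at least 1 with a 95% Poisson interval above 0 for 13 of the 35 genes (Gclc, Gclm, Gsr, Pgd, Taldo1, Me1, Prdx1, Prdx6, Cat, Hmox1, Blvrb, Nqo1 and Gsta3), where 7.75% of all genes were, and at most -1 for Gpx1 alone, where 10.3% of all genes were. It was 4.09 for Gsta3 (3.14 to 5.04), 2.45 for Cat (2.36 to 2.54), 2.28 for Gclm (2.14 to 2.43) and -1.96 for Gpx1 (-2.03 to -1.89). The median over the 35 genes was 0.62, beside -0.06 over all measured genes. Slc7a11 at 0.53 (0.34 to 0.73), Txn1 at 0.42 and Txnrd1 at 0.62 leaned the same way by less than 2-fold, and Sod2 leaned the other way at -0.92. This difference uses all 4 libraries and leaves no residual degree of freedom, so it has no replicate test.

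**Figure D4:**
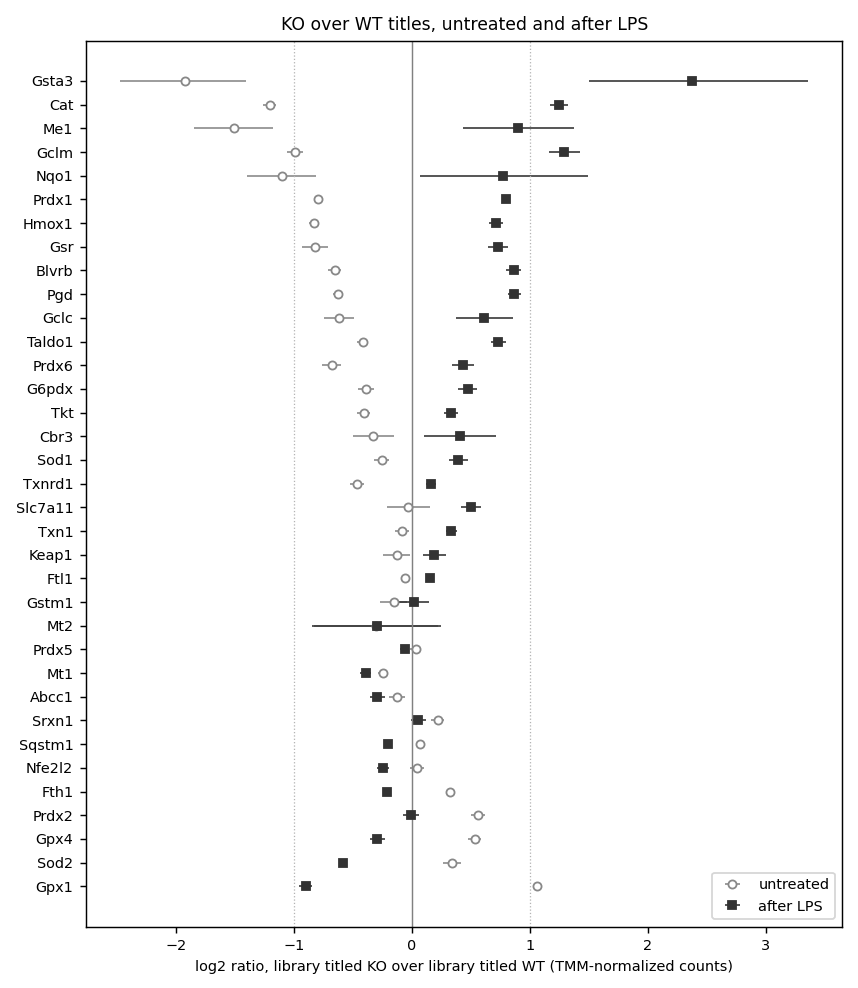
The log2 ratio of the KO over the WT library for each gene, untreated (open circles) and after LPS (filled squares), with 95% intervals for counting error; dotted lines mark 2-fold. In the upper rows, from Gsta3 to Ftl1 apart from Slc7a11, circles lie left and squares right of 0 with intervals clear of it, and near the bottom Gpx1, Sod2, Gpx4, Fth1 and Sqstm1 are reversed.

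Between titles the direction thus turned with treatment. Untreated, KO was at least 2-fold lower than WT in 4 of 35 genes (Me1, Cat, Nqo1 and Gsta3), beside 2.03% of all genes, and higher in 1 (Gpx1), beside 3.16%. After LPS, KO was at least 2-fold higher in 3 (Gclm, Cat and Gsta3), beside 3.42% of all genes, and lower in none, beside 4.81%. By counting intervals alone, 21 of the 35 genes were lower in KO untreated and higher in KO after LPS, as 14.6% of all genes were. Such intervals narrow with depth, so deeply counted genes enter at small ratios. Ftl1 was 1.04-fold lower in KO untreated and 1.11-fold higher after LPS. The share of all genes includes genes with lower counts and wider intervals. The 21 were Keap1, Gclc, Gclm, Gsr, all 5 NADPH enzymes, Txn1, Txnrd1, Prdx1, Prdx6, Sod1, Cat, Hmox1, Blvrb, Ftl1, Nqo1, Cbr3 and Gsta3. The reverse held for 5 genes (Sqstm1, Sod2, Gpx1, Gpx4 and Fth1), beside 16.2% of all genes. Cat and Gsta3 crossed by at least 2-fold both ways, as 1.19% of all genes did, and none crossed so in the reverse direction, as 1.79% of all genes did. The median log2 ratio of KO over WT was -0.29 untreated and 0.33 after LPS, beside 0.03 and -0.02 over all measured genes. The same libraries stood high for Lyz2 (WT untreated and KO with LPS). The opposite pair, KO untreated and WT with LPS, stood high for Lyz1 and for Mmp8, most of the summed neutrophil markers given above. S100a8, the other measured neutrophil marker, had 43, 54, 167 and 45 counts and was high in WT with LPS alone. Of the B cell markers 1 of 5 was measured, Cd79b, with 692, 469, 167 and 447 counts. The 10 macrophage markers split. The LPS response was at least 2-fold higher in KO than in WT for 2 (Lyz2 and Cd163), beside 7.75% of all genes. It was lower for 3 (Cd68, Fcgr1 and Cd14), beside 10.3%. Cd163 had 122, 60, 18 and 36 counts, and Cd14 had 6422, 19018, 57814 and 25743. Whether these genes or the mismatch between tags and titles had a part in the redox pattern was not tested. The additive model gave no title effect by edgeR for any redox gene or any of the 13989 genes at the adjusted threshold, and none of the 35 had an unadjusted p under 0.05 (39 of all genes did); DESeq2 and limma-voom also called 0 genes, a share of 0.00% in each direction. That model averages over treatments, and differences of opposite sign before and after LPS cancel in it.

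The authors' deposited table gave adjusted p-values for the same 4 comparisons of 2 libraries. With 1 library on each side, these p-values hold no spread between replicates. In the authors' deposited table, 4 redox genes were higher (Nfe2l2, Slc7a11, Prdx5 and Sod2) and 8 lower with LPS in WT at an adjusted p under 0.05, where it called 18.2% of the genes it listed, and 8 were higher and 1 (Gpx1) lower in KO, where it called 19.2%. Between titles the authors' deposited table called Gsta3 alone, lower in KO untreated and higher in KO after LPS, where it called 0.823% and 1.59% of the genes it listed. These shares are not split by direction.

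Genes around the pathway were read from lists of non-members. Among 11 measured partners and antagonists of NRF2 and parts of the KEAP1 ligase, 4 rose and 1 fell in the additive model by edgeR, which for all genes tested gave 9.35% and 5.14%. Maff, a small MAF partner, had 2.40, 2.39, 73.3 and 77.6 CPM and rose by 5.01 ± 0.24 (adjusted p = 0.00438). Mafk, another, had 31.2, 30.1, 196 and 235 CPM (2.84 ± 0.24, adjusted p = 0.00618), whereas Mafg had 122, 115, 46.4 and 59.0 CPM and fell by 1.14 (adjusted p = 0.0384). Acod1, the enzyme that makes itaconate, had 60.9, 73.9, 7739.8 and 7311 CPM and rose by 6.84 ± 0.53 (adjusted p = 0.00597). Bach1, a repressor that competes with NRF2 for its sites and is named here after its values were seen, had 161, 159, 692 and 691 CPM and rose by 2.15 ± 0.26 (adjusted p = 0.0120). In each of these 5 genes WT and KO differed by at most 1.27-fold.

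Among 30 further measured NRF2 targets and glutathione or thioredoxin genes, 2 were higher and 8 lower with LPS in WT by the size rule, beside 15.4% and 15.0% of all genes, and 3 and 5 in KO, beside 14.6% and 17.8%. Osgin1, an oxidative stress response gene, had 20.8, 26.6, 1.81 and 2.20 CPM and fell by 3.52 (adjusted p = 0.00662, edgeR). Sesn2, a stress-induced sestrin, had 51.2, 40.2, 6.75 and 7.40 CPM and fell by 2.65 (adjusted p = 0.00783), and Slc7a1, a cationic amino acid transporter, had 14.6, 19.7, 58.3 and 59.9 CPM and rose by 1.84 (adjusted p = 0.0113). In all, 2 rose (Slc7a1 and Ugdh) and 4 fell (Osgin1, Sesn2 and, named after their values were seen, Txnip and Abcc3) of 32 tested. The LPS response was higher in KO than in WT by at least 2-fold for 3 of the 30 (Ggt5, Ephx1 and Gstp1) and lower for 1 (Slc3a2), beside 7.75% and 10.3% of all genes, so this list stood near the background. Ephx1, an epoxide hydrolase, had 20.6, 11.9, 4.95 and 14.0 CPM, whereas Slc3a2, the heavy chain that pairs with Slc7a11, had 254, 435, 445 and 336.

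Of 14 further measured pentose phosphate and NADPH genes, Mthfd2 (20.9, 22.7, 49.8 and 68.3 CPM) and Rpe rose with LPS and Nadk2 fell by edgeR (9.35% and 5.14% of all genes tested), and Aldh1l2, a mitochondrial folate enzyme that makes NADPH, crossed the titles with 3.81, 1.05, 1.69 and 5.81 CPM. Of 11 measured oxidant sources, Cybb, the catalytic subunit of the phagocyte NADPH oxidase, had 576, 609.9, 2022 and 1896 CPM and rose by 1.76 (adjusted p = 0.0310, edgeR). Nos2, the inducible nitric oxide synthase, had 0.726, 1.23, 147 and 70.9 CPM and rose by 6.71 (adjusted p = 0.00601, edgeR), with KO 2.07-fold lower than WT after LPS. Of 12 oxidant sources tested these 2 rose and none fell. Of 13 measured iron genes 2 rose and none fell: Slc11a2, an iron importer, had 53.8, 48.7, 136 and 147 CPM (adjusted p = 0.0176, edgeR), and Cp, the ferroxidase ceruloplasmin, had 85.7, 57.3, 268 and 356 CPM (adjusted p = 0.0199). Slc40a1, the iron exporter ferroportin, crossed the titles with 62.0, 29.9, 17.1 and 37.2 CPM, in the same direction as Hmox1, and Steap3, an endosomal ferrireductase, crossed in the other direction with 24.4, 57.8, 44.9 and 19.4 CPM. Of 13 measured zinc and copper genes 3 rose (Slc39a14, Atp7a and, named after its values were seen, Slc39a1), while the metallothioneins, as given above, did not meet the 2-fold rule. The shares of all genes that rose and fell, given with the partners of NRF2, hold for the iron and zinc lists too.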

How the data were processed

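Poly-A-selected RNA of 4 libraries was aligned by the authors to mm10 with HISAT2 2.0.5 (named in the submitters' processing notes). In the deposited table stood read counts per gene, per the file headers. It also held the authors' FPKM, and, per the file headers, the authors' log2 fold, p-value and adjusted p-value for each of 4 comparisons. The sources used here do not give the counting program, its strand setting or the FPKM library sizes. A set of 8 further columns of per-sample values was not used.

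Counts were scaled by TMM (factors 1.25, 1.16, 0.820 and 0.840; edgeR 4.0.16, R 4.3.3). Pairs of libraries were compared by the 2-fold rule of the report (Python 3.11.15, SciPy 1.17.1), with no test since each group had 1 library. An additive edgeR quasi-likelihood model, after filterByExpr, used all 4 libraries. Its SE is implied by the F statistic. Models were tested on simulated data. Alternatives were other scalings, filters, prior counts, fold thresholds, FPKM with a pseudocount of 1, DESeq2 1.42.0, limma-voom (limma 3.58.1) and leaving out each library.

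All 36 members were named, with Fbxw7, Lyz1 and Lyz2 as checks, and from each list of non-members at most the 3 genes with the largest called ratio in each direction; exceptions are stated. The members and lists were chosen with earlier results of these data known. Marker lists covered 8 cell types. None of 5 mast cell and none of 6 fibroblast markers was measured, and 2 of 7 T cell and 1 of 5 dendritic cell markers were. Overlapping genes were read from the gene coordinates (mm10) deposited with the authors' counts.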

Additional observations from a re-analysis of the deposited data

Results flagged for a closer look

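Cat and Gsta3 had effects of opposite sign between treatments and between titles, each at least 2-fold under TMM scaling, and with 1 library per group the difference was not tested. Catalase (Cat) had a log2 ratio of KO over WT of -1.21 untreated and 1.24 after LPS, and a log2 LPS response of -1.34 in WT and 1.11 in KO. Gsta3 had a log2 ratio of KO over WT of -1.86 untreated and 2.23 after LPS, and a log2 LPS response of -2.75 in WT and 1.35 in KO, at 13 to 124 counts per library. A prior count of 2 was added before these ratios were taken. Groups of 1 library could not be searched for outlying samples. Scaled by library totals alone, the LPS response in KO was 0.64 for Cat and 0.90 for Gsta3, both still positive but under 2-fold.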

How the results depend on the processing

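No paired analysis was possible because each group had 1 library and the labels give no replicate numbers.

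With library totals in place of TMM factors, genes higher with LPS went from 5 to 2 in WT and from 10 to 5 in KO, and lower ones from 8 to 13 and from 1 to 4; of all genes 9.47% and 9.26% were then higher and 33.2% and 31.8% lower. KO over WT untreated then gave 0 higher genes in place of 1 (Gpx1), beside 2.62% of all genes in place of 3.16%. The share of all calls that were higher went from 50.7 to 22.2% (LPS in WT), 45.0 to 22.6% (LPS in KO), 60.9 to 48.4% (KO over WT untreated) and 42.9 to 53.4% (difference of LPS responses), while the median gene moved by -0.60, -0.46, -0.11 and 0.14. Genes with both LPS libraries above both untreated ones went from 13 to 7 (15.2% of all genes) and below them from 4 to 16 (64.9%), settings chosen after seeing the data, as were those of the next sentence. The 21 genes lower in KO untreated and higher after LPS stayed 21 with DESeq2's size factors (16.3% of all genes) and with library totals (20.1%), and were 20 at a mean of at least 5 CPM (16.7%).

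At a 1.5-fold threshold the counts were 9 higher with LPS in WT (23.2% of all genes), 4 lower with LPS in KO (29.2%), 12 lower in KO untreated (5.98%), 12 higher (8.26%) and 1 lower (10.6%) in KO after LPS, and 3 with a lower LPS response in KO (19.2%). A prior count of 0.5 gave 2 lower with LPS in KO (18.2%), and FPKM with a pseudocount of 1 gave 1 lower in KO untreated (0.568%).

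In the additive model, against 4 that rose and 0 that fell, the counts were 2 and 3 with library totals (6.55% and 22.5% of all genes), 8 and 4 without a filter (7.79% and 7.01%), 9 and 3 without the title term (16.7% and 15.3%), and 8 and 1 by DESeq2 (11.2% and 6.05%). By limma-voom 7 rose (10.8%) and 0 fell (6.33%). In the main fit Slc7a11 had the smallest adjusted p of the redox genes, 0.00703 by edgeR. Leaving out 1 library leaves no residual degree of freedom for both terms, so those fits had treatment alone. In them the lone library of an arm is assumed to vary like the others, and their counts are not given here. Slc7a11 and Sod2 rose at 0.05 in every fit that used all 4 libraries. The causes were not tested. Depth limits Sod3, Mt2, Gsta3, Nqo1 and Me1, whose lowest libraries held 2, 52, 13, 29 and 61 counts.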
